A study of Mus musculus with 4 samples.

Results

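Trp63 and 6 keratin genes of airway basal cells (Krt5, Krt14, Krt15, Krt17, Krt6a and Krt16) are described here in single cells of mouse trachea. The 7 genes were named in advance as a group, and all 7 were found among the 33697 features counted. They were followed per library and inside basal cells picked by a gate of at least 1 Trp63 and at least 3 Krt5 UMIs (unique molecular identifiers, 1 per captured transcript). The gate held 5804 of the 35008 cells kept. Because Trp63 and Krt5 set the gate, their levels inside it are given as a description only, and the other 5 keratins took no part in it.

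The data are 4 libraries, 1 for each combination of dorsal or ventral trachea with control or Ctnnb1 knockout. All mice carried P63-CreER, Ki67-lsl-Dre and Rosa26-rsr-GFP and received tamoxifen. P63-CreER limits recombination to cells that express P63, Ki67-lsl-Dre then needs division at some time after Cre acted, and Rosa26-rsr-GFP records it. GFP transcripts (eGFP) therefore mark descendants of basal cells that divided. Controls were Ctnnb1-fl/+ and so lost 1 allele of beta-catenin on recombination, while knockouts were Ctnnb1-fl/fl. Tracheae were taken 10 days after tamoxifen, cut into dorsal and ventral parts under a stereomicroscope and digested with papain. The sources used here do not give the age, sex or number of the mice behind a library, or which exons were deleted.

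Each group was 1 library, so no difference between groups has a replicate check and no p-value is given. Intervals in brackets are at 95% and cover counting error only. Unless stated, 4 values in a row stand for the control dorsal library, the control ventral, the knockout dorsal and the knockout ventral. Levels are UMIs per 1000000 UMIs (CPM) of the cells named.

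Trp63 encodes p63, a transcription factor of the p53 family that maintains basal cells of stratified and airway epithelium. Keratins assemble as pairs of a type II protein (Krt5, Krt6a) with a type I protein (Krt14, Krt15, Krt16, Krt17), and Krt5 with Krt14 is the classical pair of basal cells. In the resting mouse trachea only some basal cells hold Krt14, and Krt6a, Krt16 and Krt17 are known as keratins of wounded, activated or appendage epithelium. Dorsal trachea is backed by the trachealis muscle and holds hillocks, layered islands marked by Krt13, while ventral trachea is backed by cartilage and holds the submucosal glands.

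Because Krt5 and Krt14 form that pair but moved apart between the libraries, the 250 bases before a transcription start of each are shown. The sequences are RefSeq's for GRCm38.p6, a build other than the GRCm39 of the counts, and 2 of the 7 genes were matched. Krt5 lies on the minus strand, and the window is chr15:101712906-101713155. Krt14 also lies on the minus strand, with the window at chr11:100206031-100206280. Whether these starts are the main ones of the genes was not checked, and the Krt14 window may belong to an alternative start. Capitals mark CATG, the core of the half-site bound by the p53 family, searched on both strands (it reads the same on each).
Krt5: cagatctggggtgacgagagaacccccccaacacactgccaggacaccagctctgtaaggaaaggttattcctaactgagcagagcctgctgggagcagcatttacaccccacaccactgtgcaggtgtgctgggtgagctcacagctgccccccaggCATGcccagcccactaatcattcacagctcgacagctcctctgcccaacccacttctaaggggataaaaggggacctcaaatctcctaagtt
Krt14: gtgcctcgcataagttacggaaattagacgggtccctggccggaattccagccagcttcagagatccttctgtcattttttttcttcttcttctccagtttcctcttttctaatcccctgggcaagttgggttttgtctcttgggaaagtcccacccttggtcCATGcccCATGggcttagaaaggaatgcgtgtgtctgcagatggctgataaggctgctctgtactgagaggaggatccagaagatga
In Krt5 the CATG began 92 bases before the start, and in Krt14 there were 2, at 87 and 80 bases. CATG was present in 53.9% of 32851 RefSeq promoter windows of this length. The letters TATAAA (in 12.4% of windows), TGANTCA (6.75%) and GGGCGG (32.7%) stand for the TATA box, AP-1 and Sp1, and on both strands they were in neither window. The CATG copies overlap no other motif searched. Such matches describe letters and show no bound site.

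Gated cells numbered 2518, 1201, 1316 and 769, which were 19.4%, 12.8%, 21.5% and 11.7% of the cells kept in each library. Between 93.8% and 97.0% of them lay in clusters called basal-like from fixed markers, and 62.2% to 74.2% of basal-like cells passed the gate. Those markers include Trp63 and Krt5, which set the gate, and Krt14, Krt15 and Krt17. This overlap was therefore partly built in and is no separate check of the gate. Most basal-like cells fell in cluster 0 in the control dorsal library, in cluster 1 in both ventral libraries and in cluster 2 in the knockout dorsal library, so the basal cells compared were not of 1 cluster. The gated cells had median depths of 16539.5, 22993, 21605 and 23804 UMIs. At the edge of the gate, cells with exactly 3 Krt5 UMIs held Krt17 at 325, 131, 75.9 and 102 CPM, and cells just outside it with 2 held 324, 53.3, 76.1 and 38.1 CPM. Libraries shared 108, 98, 75 and 76 of their barcodes with another library, but only 1 barcode was shared between gated cells.

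RNA of other cell types was present in the gated cells. All 8 secretory markers were detected in each library and summed to 60618, 58276, 75299 and 73304 CPM, and every gated cell held at least 3 of them. The 8 hillock markers, Krt6a among them, summed to 5644, 1667, 4213 and 1159 CPM. Fibroblast markers summed to 335, 317, 316 and 248 CPM, nearly all from Dcn, and the 6 myoepithelial markers to 29.8, 13.4, 15.8 and 27.9 CPM. The hillock, fibroblast and secretory sums were higher dorsally in both genotypes. The 8 gland markers went the other way, at 987, 1338, 638 and 1546 CPM. At least 3 of them were in 1.43%, 89.0%, 0.608% and 80.0% of gated cells. The myoepithelial sum was higher dorsally in controls and ventrally in knockouts, which is also the order of Krt14 below. Without cells holding myoepithelial, fibroblast or immune markers, Krt14 dorsal over ventral was 5.02 in controls and 0.389 in knockouts. The part of secretory and gland RNA was not tested.

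Trp63 and Krt5 set the gate, so their levels in it are a description. Trp63 was at 132, 149, 157 and 179 CPM in the gated cells. Krt5 was at 1346, 906, 1058 and 849.7 CPM, highest in the control dorsal library. Over whole libraries, where nothing had been gated, Krt5 was at 329, 164, 281 and 132 CPM and Trp63 at 30.4, 28.4, 44.0 and 30.3 CPM. Whole-library levels also follow how many basal cells each library holds, and fewer basal cells and less RNA per basal cell cannot be told apart there.

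Krt15, a type I keratin of resting basal cells, was close to level across the libraries. It stood at 2916, 2835, 2658 and 2286 CPM in gated cells. The dorsal to ventral ratio was 1.03 (1.02 to 1.04) in controls and 1.16 (1.15 to 1.18) in knockouts, and the knockout to control ratio was 0.912 dorsally and 0.806 ventrally. The control dorsal to ventral ratio fell to 0.936 when the gate was applied to thinned cells, and without cells holding Krt13 the ratios were 0.858 in controls and 0.981 in knockouts, so their side of 1 was not firm. Krt15 was found in 98.0% to 99.6% of gated cells after thinning to 8000 UMIs.

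Krt17, which is induced in activated epithelium, was highest in the control dorsal library. Krt17 was at 968, 233, 401 and 224 CPM in gated cells. Both ventral libraries were nearly level and the knockout dorsal library lay between. The dorsal to ventral ratio was 4.16 (4.06 to 4.27) in controls and 1.79 (1.73 to 1.85) in knockouts. Knockout over control was 0.414 (0.407 to 0.422) dorsally and 0.964 (0.928 to 1.00) ventrally, and the latter reached 1.03 with the gate on thinned cells. Over whole libraries the same ratios were 5.06, 2.79, 0.431 and 0.781.

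Krt14, the usual partner of Krt5, was highest in the control dorsal library and lowest in the knockout dorsal one. Its gated levels were 184, 48.5, 32.4 and 94.1 CPM, an order that neither Krt5 nor Krt17 had. Dorsal over ventral was 3.79 (3.59 to 4.01) in controls and 0.345 (0.320 to 0.371) in knockouts, on opposite sides of 1. Knockout over control was 0.176 (0.166 to 0.187) dorsally and 1.94 (1.81 to 2.08) ventrally. Over whole libraries Krt14 was at 47.9, 9.26, 12.5 and 17.8 CPM, and the 4 ratios in the same sequence were 5.17, 0.702, 0.262 and 1.93.

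Krt6a, a type II keratin induced in wounds and found in hillocks, had the widest range among the keratins that were present in all 4 libraries. Krt6a was at 179, 14.9, 32.8 and 6.55 CPM in gated cells. Dorsal over ventral was 12.04 (11.0 to 13.3) in controls and 5.00 (4.16 to 6.05) in knockouts, and knockout over control was 0.183 (0.172 to 0.194) dorsally and 0.440 (0.358 to 0.536) ventrally. Over all gated cells Krt6a was lower in the knockout library of both regions and higher dorsally in both genotypes. In gated cells without Krt13 or Krt4 the knockout order turned, with 0.880 CPM dorsally and 6.34 CPM ventrally, a ratio of 0.139, and without Krt13 alone that ratio was 0.549.

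Krt16, the type I partner of Krt6a in wounded epithelium, was at 42.3, 4.47 and 8.50 CPM in the first 3 libraries. In gated cells of the knockout ventral library it had 0 UMIs, where 3 UMIs would have been 0.155 CPM. Against that floor the control ventral level was 28.9-fold and the knockout dorsal level 54.9-fold higher. By the exact interval, knockout over control was at most 0.0432 ventrally, and dorsal over ventral was at least 44.4 in knockouts. Few cells set these levels, as 1 cell held 91 of the 137 control ventral UMIs and 2 cells held 50% of the knockout dorsal ones. In the knockout ventral library 2 of 1025 basal-like cells, both outside the gate, held 63 Krt16 UMIs, which is 2.65 CPM over all of them. Counts of Krt6a and Krt16 are uncertain because reads can fall on close copies. Of the 50-base stretches of Krt6a transcripts, 45.7% also occur in another gene, mostly Krt6b, and 37.6% of those of Krt16 do. The shares were 13.9% for Krt14, 8.52% for Krt5, 3.99% for Krt17, 0.640% for Krt15 and none for Trp63. Krt14 shared most with Krt16, at 11.0% of its stretches, and Krt17 most with Krt14, at 3.66%.

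**Figure D1:**
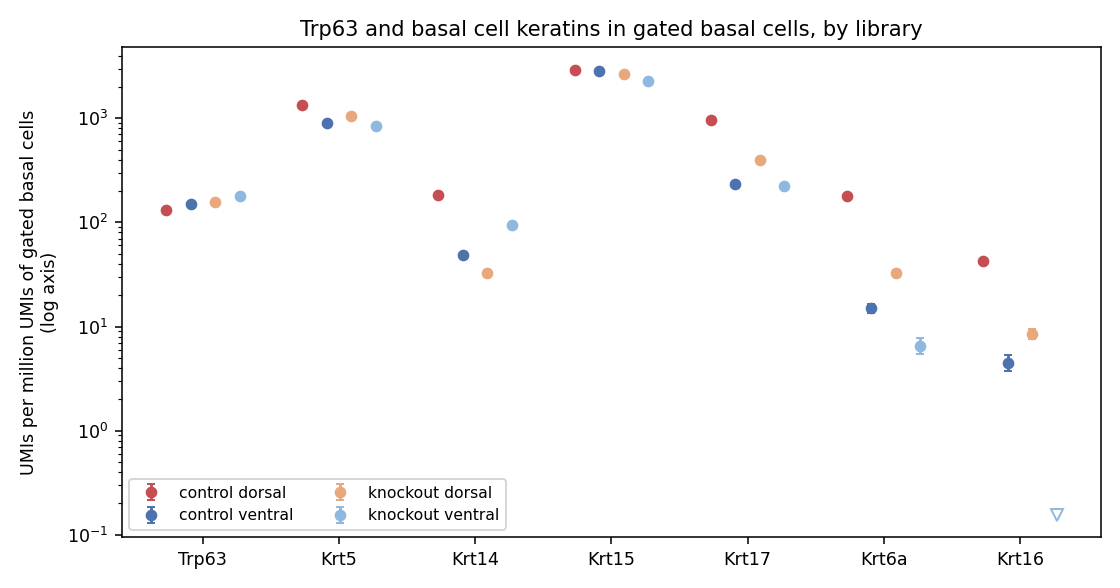
Levels of the 7 genes in gated basal cells in CPM on a log axis, with exact Poisson 95% intervals that are mostly smaller than the points; colours are the 4 libraries and the open triangle is the level of 3 UMIs for a gene with 0 UMIs. Krt15 lies between 2286 and 2916 CPM in all 4 libraries, whereas Krt14 runs from 32.4 to 184 CPM and Krt6a from 6.55 to 179 CPM.

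Among the 5 keratins outside the gate, 4 were at least 1.5-fold higher in dorsal than ventral controls and none was lower, where 10.1% of 13696 genes measured in these cells were higher and 15.6% lower by that fold. In knockouts 3 were higher dorsally and Krt14 was lower, beside 8.32% higher and 19.8% lower among 13020 genes. Between knockout and control, 4 of the 5 were lower dorsally and none higher, beside 17% lower and 7.62% higher of 13644 genes. Ventrally Krt14 was higher and Krt6a and Krt16 were lower, beside 2.09% higher and 4.02% lower of 12812 genes. The median log2 ratio of the 5 keratins was 2.06, 0.84, -2.31 and -0.31 in these comparisons, and that of all genes measured was -0.01, -0.13, -0.12 and -0.01. Each library enters 2 of these comparisons, so they are not independent. Scaling by the median ratio of genes in place of total UMIs shifted the log2 ratios by 0.01, 0.14, 0.13 and -0.01 and left each Krt14 and Krt17 ratio on its side of 1. The ventral Krt14 ratio fell under 1.5 with doublets kept, to 1.45, and among cells without Krt13 or Krt4, to 1.31.

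The share of cells with a transcript showed which levels came from many cells and which from few. Each gated cell was thinned to 8000 UMIs for this, which left out 115, 12, 18 and 14 shallower cells. The share of gated cells with Krt17 was then 71.4% (69.6 to 73.2), 42.6% (39.8 to 45.5), 45.0% (42.3 to 47.7) and 40.4% (36.9 to 44.0). The control dorsal library exceeded the control ventral one by 28.8 points (25.4 to 32.1), while dorsal and ventral knockouts differed by 4.59 points (0.150 to 8.98). With at least 3 Krt17 UMIs required, the shares were 51.6%, 21.3%, 21.96% and 20.8%. The share in the knockout dorsal library was therefore close to the ventral shares, although its Krt17 CPM was 1.79 times that of the knockout ventral library. Without thinning the Krt17 shares were 78.9%, 61.0%, 62.3% and 56.4%.

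Krt14 was found in few gated cells of any library. The thinned shares were 8.91% (7.80 to 10.1), 6.06% (4.77 to 7.57), 2.47% (1.69 to 3.46) and 7.15% (5.42 to 9.23). Dorsal minus ventral was 2.85 points (1.00 to 4.56) in controls and -4.69 points (-6.87 to -2.78) in knockouts. Between genotypes, the knockout share less the control share was -6.44 points (-7.84 to -4.98) in dorsal tissue. In ventral tissue it was 1.10 points (-1.12 to 3.49), an interval that includes 0. The higher Krt14 CPM of the knockout ventral library thus had no matching difference in the share of cells with at least 1 UMI beyond counting error. Cells with at least 3 Krt14 UMIs after thinning made up 6.33% (5.39 to 7.37), 3.03% (2.13 to 4.17), 1.23% (0.706 to 1.99) and 5.70% (4.15 to 7.60). At that threshold the knockout share exceeded the control share by 2.67 points (0.834 to 4.73) in ventral tissue, and the difference was -5.09 points (-6.24 to -3.91) in dorsal tissue. Unthinned shares were 10.8%, 9.66%, 3.80% and 9.88%.

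Krt6a was found in 20.2%, 4.04%, 4.62% and 2.25% of thinned gated cells. Krt16 was found in 3.79%, 0.673% and 0.770% of them and in 0 of 755 knockout ventral cells, which allows a share of cells with a UMI of up to 0.397% by a limit of 3 counts and 0.487% by the exact interval. Free RNA in the droplets could give a cell a UMI, and fibroblast-like cells, which should lack these keratins, gave its size. In them, thinned to the same depth, Krt14 was in at most 0.0670%, Krt17 in at most 1.41%, Krt6a in at most 0.268% and Krt16 in at most 0.0670% of cells of any library. Krt15 was in 14.1%, 5.21%, 2.82% and 1.82% of them. The fibroblast-like cells had median depths of 8825, 11722.5, 10427.5 and 10344 UMIs before thinning.

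**Figure D2:**
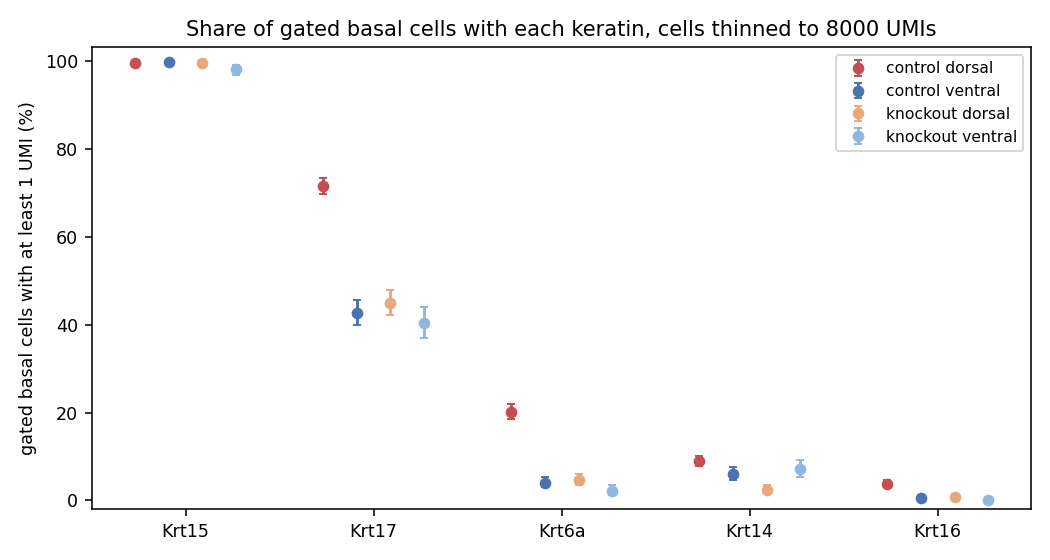
Percentage of gated basal cells with at least 1 UMI of each keratin after thinning to 8000 UMIs, with exact Clopper-Pearson 95% intervals; colours are the 4 libraries. The control dorsal library stands alone for Krt17 at 71.4% and Krt6a at 20.2%, while for Krt14 the knockout dorsal library is lowest at 2.47%.

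Krt14 transcripts were concentrated in a handful of cells. In each library 271, 116, 50 and 76 gated cells held any Krt14 UMI, and 27, 8, 3 and 9 of them held 50% of its UMIs. The highest single cell held 512, 198, 242 and 185 Krt14 UMIs. For Krt17, 1987, 732, 820 and 434 cells held a UMI, and 50% of its UMIs lay in 191, 73, 29 and 51 cells. One knockout dorsal cell held 2227 Krt17 UMIs. Without the 5 cells of each library with the most Krt14, dorsal over ventral was 5.15 in controls and 0.210 in knockouts, and knockout over control was 0.0882 dorsally and 2.16 ventrally. The same step for Krt17 gave 4.39, 1.47, 0.326 and 0.974. Krt17 in the knockout dorsal library thus rested in part on a few cells, and the Krt14 ratios kept their side of 1 without them.

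Krt17 accompanied Krt14 in most cells that held Krt14, but most cells with Krt17 lacked Krt14. Among thinned gated cells with Krt14, 94.9%, 80.6%, 90.6% and 94.4% also held Krt17, against 69.1%, 40.2%, 43.8% and 36.2% of cells without Krt14. Both transcripts were seen in 8.45%, 4.88%, 2.23% and 6.75% of cells, where the product of the separate shares would be 6.36%, 2.58%, 1.11% and 2.89%. Cells with Krt14 alone were rare, at 0.458%, 1.18%, 0.231% and 0.397%, whereas 62.96%, 37.8%, 42.8% and 33.6% held Krt17 alone. The odds ratio of holding both was 8.25 (4.47 to 15.2), 6.16 (3.40 to 11.2), 12.4 (3.75 to 40.9) and 29.9 (9.24 to 96.8), with cells as the units and not replicates. Krt14-positive cells of the ventral libraries were shallower than the other gated cells, as given below, and those of the dorsal libraries deeper. Krt17 shares 3.66% of its 50-base stretches with Krt14, and the part of misplaced reads was not tested.

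Krt17 was also at a higher level in cells with Krt14. In cells with 0, 1 to 2 and at least 3 thinned Krt14 UMIs, Krt17 was at 714, 2480 and 3132 CPM in the control dorsal library and at 184, 537 and 1781 CPM in the control ventral one. It was at 278, 4332 and 3102 CPM in knockout dorsal cells and at 158, 549 and 1411 CPM in knockout ventral cells, where the middle class held only 16 and 11 cells. Krt15 rose with Krt14 in this way only in the control dorsal library, at 2782, 3678 and 4116 CPM. Between cells with at least 3 and with 0 Krt14 UMIs its ratio was 1.48 and 1.04 in the dorsal libraries (control and knockout) and 0.666 and 0.604 in the ventral ones. The Krt17 ratios in the same cells were 4.39, 9.69, 11.2 and 8.91, and 8.49%, 21.3%, 20.3% and 16% of genes measured were at least 1.5-fold higher in the cells with at least 3, while 18.9%, 12.9%, 25.5% and 15.2% were lower by that fold.

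**Figure D3:**
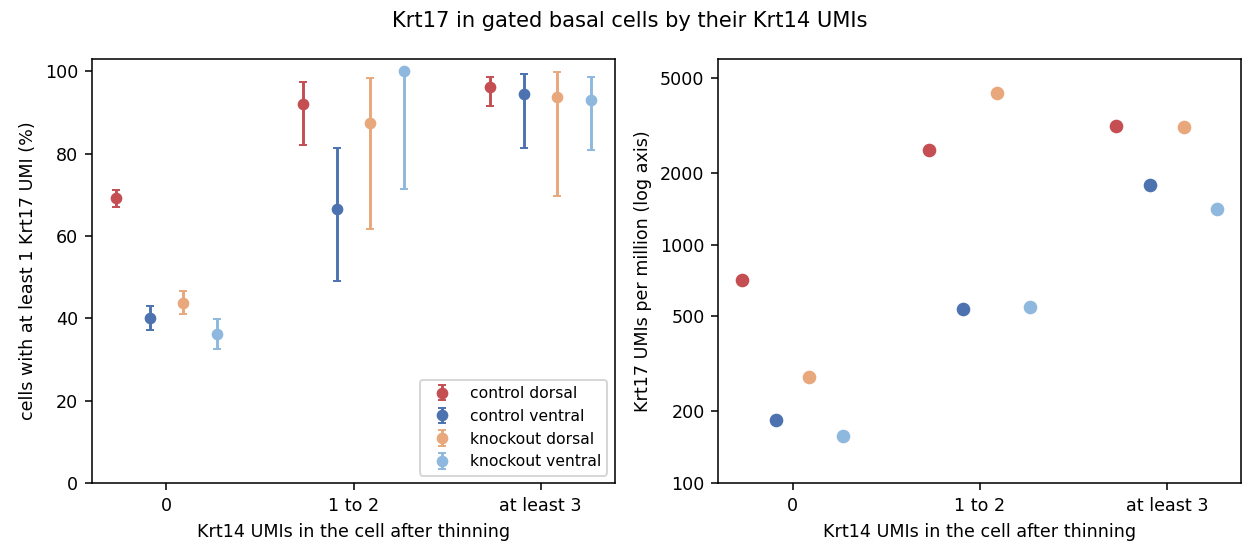
Left, percentage of gated basal cells with at least 1 Krt17 UMI (exact Clopper-Pearson 95% intervals) and right, Krt17 CPM on a log axis, in cells with 0, 1 to 2 or at least 3 Krt14 UMIs after thinning to 8000 UMIs; colours are the 4 libraries. With at least 3 Krt14 UMIs the share with Krt17 is 93.0% to 96.1% in every library, and with 0 it is 69.1% in control dorsal cells and 36.2% to 43.8% in the other libraries.

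In the dorsal control library Krt6a and Krt16 were also found with Krt14 beyond the product of their separate shares. There 6.03% of cells held both Krt14 and Krt6a, where the product of the shares is 1.80%, and 1.96% held Krt14 with Krt16, where it is 0.337%. In the knockout dorsal library 12 cells held Krt14 with Krt6a and 4 held Krt14 with Krt16. The ventral libraries had 7 and 5 cells with Krt14 and Krt6a, and 2 and 0 with Krt14 and Krt16. These counts are too few for the ventral overlap to be set against the dorsal one. Krt14 shares 11.0% of its 50-base stretches with Krt16, and the part of misplaced reads in that overlap was not tested.

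Cells with at least 3 thinned Krt14 UMIs, called Krt14-high below, numbered 152, 36, 16 and 43 among the gated cells. Their median depths were 21715, 16623, 39931 and 15199 UMIs, against 16611, 23329, 21626 and 24140 in gated cells without Krt14. Dorsal Krt14-high cells held Krt13, a keratin of hillocks, at 1862 CPM in controls and 977 CPM in knockouts, against 184 and 114 CPM in cells without Krt14. No Krt13 UMI was found in the 36 and 43 ventral Krt14-high cells, which allows shares of up to 9.74% and 8.22% by the exact interval. Those limits include the 7.34% and 3.71% of the deeper ventral cells without Krt14 that had one. Krt6a in Krt14-high cells was at 1101, 134, 394 and 19.7 CPM, and in cells without Krt14 at 84.2, 11.8, 17.3 and 5.93 CPM. In the control ventral Krt14-high cells 1 cell held 60 of the 99 Krt6a UMIs. Reporter-high cells, defined further on by their eGFP, made up 80.9%, 27.8%, 93.8% and 4.65% of Krt14-high cells and 52.6%, 50.1%, 27.6% and 20.97% of cells without Krt14. The Krt14-high cells of dorsal and ventral libraries thus differed in Krt13, Krt6a and the reporter-high share. For Krt13 and Krt6a the regional difference was not particular to them. Cells without Krt14 also held more Krt6a dorsally, and Krt13 at 184, 11.2, 114 and 2.25 CPM. Krt17 was found in 93.0% to 96.1% of them in every library.

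Other genes were also unequal between Krt14-high cells and the rest. Tnc, the matrix protein tenascin C, was found in 10 of 36 and 14 of 43 ventral Krt14-high cells. It was at 143 and 85.7 CPM in them and at 0.515 and 0.165 CPM in ventral cells without Krt14, and the transcription factor gene Sox9 at 122 CPM in both, against 4.43 and 5.87 CPM. Both were also higher in dorsal Krt14-high cells, Tnc at 70.9 and 46.1 CPM against 11.0 and 1.99 CPM and Sox9 at 30.5 and 11.5 CPM against 2.80 and 1.45 CPM in dorsal cells without Krt14. Acta2, smooth muscle actin, reached 336 CPM in the knockout ventral Krt14-high cells, from 290 UMIs in 8 of 43 cells. Tagln, an actin-binding protein of smooth muscle, was at 19.7 CPM there against 1.54 CPM without Krt14, from 17 UMIs in 4 cells, and Mylk, a myosin kinase, at 25.5 against 6.81 CPM, in 14 cells. The contractile genes Myh11, Cnn1 and Actg2 had 2, 0 and 0 UMIs in the same cells. Lgals7, a galectin of stratified epithelium, was at 283, 91.9, 843 and 76.4 CPM, and 1 cell held 54 of the 68 control ventral UMIs. Of the Krt14-high cells, 25.7%, 8.33%, 31.2% and 4.65% (39, 3, 5 and 2 cells) held 2 or more of 8 mitotic genes. The shares in cells without Krt14 were 6.03%, 4.48%, 4.50% and 3.14%. The ventral Krt14-high shares rest on too few cells to be set against these. Among all gated cells below that number of mitotic genes, Krt14 was at 136, 38.6, 24.0 and 91.3 CPM, in the same order of libraries as before. Genes here were named after their values were seen. At a finer clustering a basal-like cluster of 45 cells, with Krt14 first among its leading genes, held 0 dorsal cells, 15 control ventral cells and 30 knockout ventral cells.

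The regional difference in Krt14 turned with the detection of a hillock keratin UMI. In gated cells with at least 1 UMI of Krt13 or Krt4, Krt14 was at 218, 20.3, 44.5 and 32.4 CPM, higher dorsally in both genotypes. In cells with neither it was at 16.8, 163, 0.684 and 213 CPM, higher ventrally in both. Dorsal over ventral in the cells with neither was 0.103 in controls and 0.00321 in knockouts, so the control ratio of 3.79 turned to the other side of 1 in these 651 and 298 cells. Krt17 in the same cells was at 685, 455, 198 and 327 CPM, a dorsal to ventral ratio of 1.504 in controls and 0.607 in knockouts, the latter turned from 1.79. The cells without Krt13 and Krt4 were shallower, at medians of 13088, 19752, 18069 and 20666 UMIs against 18461, 24522, 26589 and 25435, and the part of depth was not tested. A single UMI is a weak mark, and Krt4 gave most of this split. A Krt4 UMI was in 71.4%, 74.2%, 55.6% and 57.7% of gated cells and a Krt13 UMI in 24.1%, 6.99%, 18.2% and 3.51%. In the shallower fibroblast-like cells, which should lack both, Krt4 was in 2.99%, 0.703%, 0.566% and 0.157% and Krt13 in 0.519% or less. With Krt13 alone as the mark, a split added after seeing the data, Krt14 in cells without it was at 37.2, 53.2, 2.15 and 98.0 CPM and Krt17 at 676, 241, 178 and 230 CPM. Dorsal over ventral was then 0.701 in controls and 0.0219 in knockouts for Krt14, and 2.80 and 0.774 for Krt17, so the same 2 ratios turned. In cells with Krt13, Krt14 was at 478 and 108 CPM dorsally and 3.49 and 2.51 CPM ventrally, the last in only 27 cells.

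Krt14 was next set against division history, as the eGFP reporter records it. Gated cells with at least 5 eGFP UMIs per 10000, called reporter-high, were 1373, 585, 379 and 152 in number, or 54.5%, 48.7%, 28.8% and 19.8% of gated cells. Cells with at most 0.5 per 10000, called reporter-low, numbered 415, 210, 332 and 272. The cells nearest the upper threshold had between 4.92 and 5.11 eGFP UMIs per 10000, and those nearest the lower one between 0.491 and 0.504. Free eGFP RNA was common, since 35.9% to 50.2% of thinned fibroblast-like cells held a UMI of it, but only 2.35% to 3.71% of them reached the upper threshold.

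In dorsal tissue Krt14 was far higher in reporter-high than in reporter-low cells. The control dorsal library had Krt14 at 279 CPM in reporter-high and 14.4 CPM in reporter-low cells, a ratio of 19.4 (15.8 to 23.9). The knockout dorsal library had 95.3 and 0.946 CPM, a ratio of 101 (48.7 to 251) that rests on 7 UMIs in the reporter-low cells. In ventral tissue the order was the opposite. Krt14 was at 25.5 CPM in reporter-high and 100 CPM in reporter-low control cells, a ratio of 0.254 (0.222 to 0.291), and at 18.0 and 106 CPM in knockout cells, a ratio of 0.169 (0.131 to 0.215). With 1 eGFP UMI set against 0, the ratios were 10.6 and 23.7 dorsally (control and knockout) and 0.476 in knockout ventral cells. Without the 5 highest cells they were 122 in control dorsal and 0.0176 in knockout ventral cells, with no value in knockout dorsal ones. After thinning, only 10 control dorsal reporter-low and 4 knockout ventral reporter-high cells held Krt14. Leaving out 5 cells could take most Krt14 from those groups, so these values cannot show how firm the side of 1 is. The sizes therefore moved widely, and with 1 eGFP UMI set against 0 each ratio given kept its side of 1. The thinned shares of cells with Krt14 gave the same order, at 12.7% and 2.61%, 3.78% and 10.7%, 7.16% and 0.311%, and 2.65% and 7.89% of reporter-high and reporter-low cells in the 4 libraries.

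The dorsal to ventral order of Krt14 therefore depended on the reporter group compared. Among reporter-high cells dorsal over ventral was 10.9 (9.89 to 12.1) in controls and 5.29 (4.18 to 6.79) in knockouts, on the same side of 1, whereas over all gated cells it was 3.79 and 0.345. Among reporter-low cells it was 0.144 (0.114 to 0.179) in controls and 0.00889 (0.00356 to 0.0184) in knockouts. Knockout over control ventrally was 0.707 (0.544 to 0.909) in reporter-high and 1.06 (0.944 to 1.20) in reporter-low cells. In ventral cells between the thresholds it was 2.05 (1.86 to 2.27), near the 1.94 of all gated cells. There Krt14 was at 121 CPM in 345 knockout and 58.7 CPM in 406 control cells, which held 58.1% and 41.3% of the Krt14 UMIs of their gates. Dorsally the ratio was 0.342 in reporter-high and 0.0657 in reporter-low cells. Between the thresholds it was 0.0411 dorsally, and dorsal over ventral was 1.05 (0.951 to 1.17) in controls and 0.0211 (0.0153 to 0.0284) in knockouts. Reporter-low cells made up 35.4% of the knockout and 17.5% of the control ventral gate.

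Krt17 followed the same regional pattern with smaller ratios. It was at 1173 and 624 CPM in reporter-high and reporter-low control dorsal cells, at 205 and 279 CPM in control ventral cells, at 772 and 271 CPM in knockout dorsal cells and at 157 and 220 CPM in knockout ventral cells. The ratios were 1.88 (1.82 to 1.94), 0.735 (0.690 to 0.785), 2.84 (2.71 to 2.98) and 0.713 (0.649 to 0.783). Krt17 was thus higher in reporter-high cells dorsally and in reporter-low cells ventrally.

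Krt6a and Krt15 were at higher CPM in reporter-high than in reporter-low cells of all 4 libraries, and Trp63 was not. The ratios for Krt6a were 5.25, 1.66 (1.28 to 2.19), 10.8 and 1.72 (1.13 to 2.62). Those for Krt15 were 1.31, 1.25, 1.17 and 1.21. Trp63 gave 0.733 (0.686 to 0.784), 0.817 (0.753 to 0.887), 0.749 (0.698 to 0.805) and 0.947 (0.862 to 1.04). Krt5 gave 1.39, 1.01, 1.18 and 1.00. Ventral Krt6a did not rise steadily with the reporter. In control ventral cells it was at 23.5 CPM in reporter-high, 2.58 CPM between the thresholds and 14.1 CPM in reporter-low cells. Knockout ventral cells had 12.2, 3.53 and 7.08 CPM, from 50, 31 and 46 UMIs. The ventral share of thinned cells with Krt6a, high less low, was 0.644 points (-3.52 to 3.72) in controls. It was 2.47 points (-0.670 to 6.99) in knockouts, and both intervals span either sign. Krt16 had 2093 UMIs in reporter-high and 33 in reporter-low control dorsal cells, a ratio of 13.6, and 306 and 1 in knockout dorsal cells, a ratio of 187 whose interval runs from 33.3 to 7410.

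Depth and division moved with the reporter groups. Reporter-high cells had medians of 18294, 23437, 23711 and 24510.5 UMIs and reporter-low cells 14114, 22435.5, 20561 and 23470.5 UMIs. Cells with 2 or more mitotic genes made up 11.2%, 5.47%, 11.3% and 3.95% of the reporter-high and 0.964%, 2.86%, 0.602% and 2.21% of the reporter-low group. Among cells with fewer than 2 mitotic genes, the Krt14 ratio was 14.3 in the control dorsal library and the Krt17 ratios 1.71 and 1.79 in the dorsal libraries. In cells without Krt13 or Krt4 the control dorsal ratios fell to 2.35 for Krt14 and 1.09 for Krt17. Of genes measured, 5.97%, 2.77%, 6.36% and 1.27% were at least 1.5-fold higher in reporter-high cells, and 3.93%, 2.57%, 1.88% and 2.42% at least 1.5-fold lower.

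**Figure D4:**
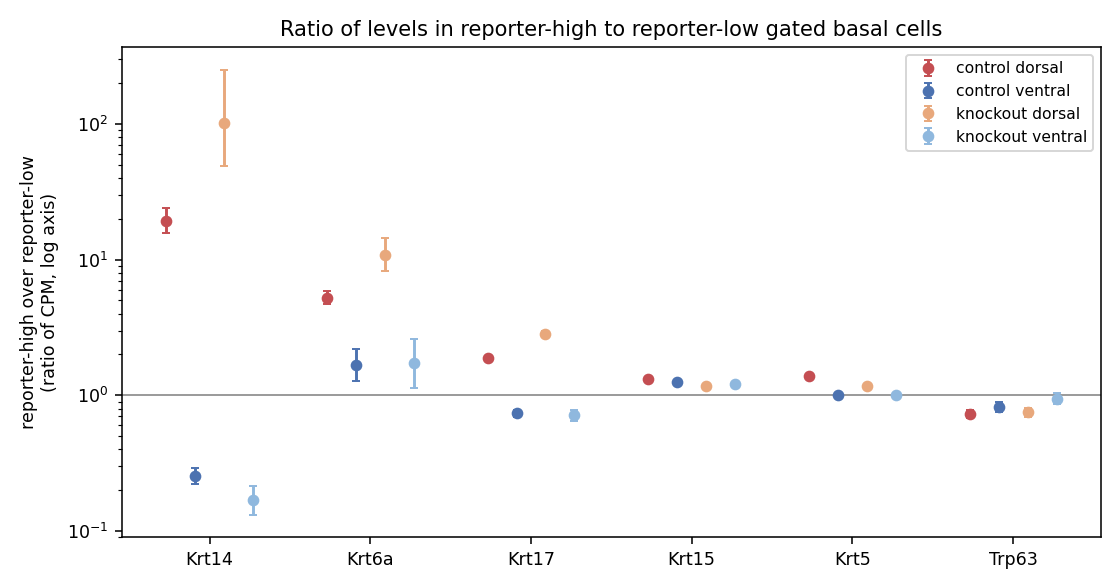
Ratio of CPM in reporter-high to reporter-low gated basal cells on a log axis, with exact conditional binomial 95% intervals; colours are the 4 libraries and the grey line is a ratio of 1. Krt14 lies at 19.4 and 101 in the dorsal libraries and at 0.254 and 0.169 in the ventral ones, and Krt15 lies between 1.17 and 1.31 throughout.

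Outside the basal cells the 7 genes were spread unequally over the cell classes. The classes were named from marker lists that hold Trp63, Krt5, Krt14, Krt15 and Krt17 (basal) and Krt6a (hillock). High levels of these genes in the class of their list follow in part from the naming. In basal-like clusters Trp63 was at 112, 133, 148 and 164 CPM and Krt5 at 1178, 812, 948 and 744 CPM. In hillock-like cells, which reached 50 cells only in the 2 dorsal libraries, Trp63 was at 8.84 and 15.9 CPM and Krt5 at 357 and 343 CPM in controls and knockouts. Krt14 was at 217 and 179 CPM there, above the 122 and 22.8 CPM of basal-like cells of those libraries, and Krt6a was at 618 and 185 CPM against 106 CPM or less in basal-like cells. Few cells gave the Krt14 level. Without thinning, a Krt14 UMI was in 14.2% and 9.57% of the hillock-like and 7.87% and 2.72% of the shallower basal-like cells. Krt17 was at 693 and 383 CPM in hillock-like cells and at 812 and 357 CPM in dorsal basal-like cells. Secretory-like cells held Krt15 at 1411, 1143, 1130 and 545 CPM, with Krt14 at 2.15 CPM or less and Krt17 at 10.3 CPM or less.

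The gate held most but not all transcripts of these genes. It took 83.4% to 84.5% of the Trp63 UMIs and 78.6% to 90.7% of the Krt5 UMIs of a library. Krt14 had 74.0%, 84.2%, 61.1% and 74.1% of its UMIs in gated cells, and Krt17 70.4% to 83.0%. Krt15 had only 32.3%, 49.1%, 44.6% and 56.8%, and Krt6a 44.0%, 48.5%, 58.1% and 45.0%.

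**Figure D5:**
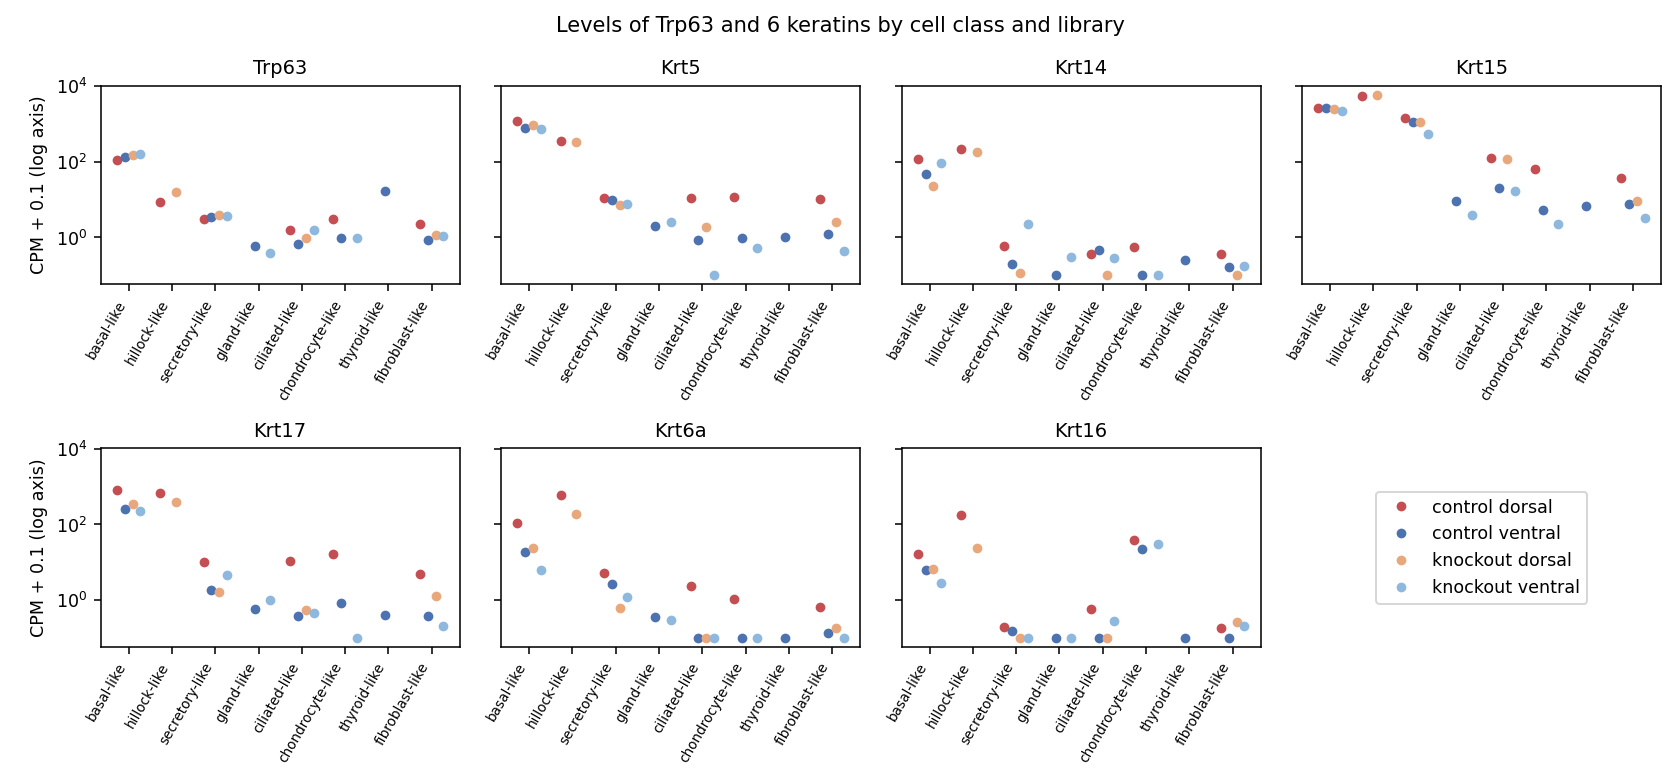
Levels of Trp63 and 6 keratins in 8 cell classes, as CPM with 0.1 added on a log axis, with 1 point per library (colours) where the class held at least 50 cells. Basal-like cells lead for Trp63 and Krt5, hillock-like cells for Krt15, Krt6a and Krt16, and Krt16 also appears in chondrocyte-like cells of 3 libraries at 22.9 to 37.6 CPM. Trp63 and Krt5 were among the markers that named basal-like cells, and Krt6a among those of hillock-like cells, so these leads follow in part from the naming.

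Over 41 sums of a class in a library (13 classes), the genes most like each member were ranked by Pearson's r of log2(CPM + 1) among 12385 genes. These points share libraries and depth, and the classes were named in part from the members, so the values describe likeness only. Closest to Trp63 were Dlk2 (r = 0.924), Fat2 (0.920) and Cdh3 (0.919), then Vsnl1 and Defb1. Krt5 and Krt17 were each other's closest gene (0.973), followed for both by Trim29. Closest to Krt14 were Trim29 (0.951), the desmosome genes Pkp1 (0.935) and Dsg3 (0.934) and the keratin Krt75. Krt14 with Krt5, its pairing partner, gave 0.895.

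Other genes of basal cells and of wounded epithelium were measured in the same gated cells as lists. Of all genes measured, 10.1% were at least 1.5-fold higher and 15.6% lower in dorsal than ventral controls, 17% were lower and 7.62% higher in dorsal knockouts than controls, and 4.02% were lower in ventral knockouts. Of 9 measured companions of wound keratins, 8 were at least 1.5-fold higher in dorsal than ventral controls, led by the growth factor Ereg (18.4 and 0.685 CPM), and 8 of 9 were lower in dorsal knockouts than in dorsal controls, with a median log2 ratio of -1.72. Ventrally 1 of 6 was lower in the knockout, the growth factor Areg at 27.6 and 55.6 CPM. Of 12 basal adhesion genes 7 were lower and none higher in dorsal knockouts, among them the laminin gene Lama3 at 18.5 and 39.3 CPM, and ventrally Lama3 alone was lower, at 12.7 and 24.3 CPM. Of 18 p63-associated and basal genes 5 were lower in dorsal knockouts and 1 in ventral ones, and 4 were higher and 2 lower in dorsal than ventral controls, with Cav1, which encodes caveolin, at 582 and 123 CPM and Fat2 at 32.4 and 69.1 CPM. The 2 of 18 lower in dorsal controls and the single genes lower ventrally are close to what those shares would give.

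Keratins outside the group and the remaining lists gave the following counts, with the shares above as background and with 8.32% of genes higher and 19.8% lower in dorsal than ventral knockouts. Of 8 simple and luminal keratins 6 were higher and none lower in dorsal controls, with Krt13 at 339 and 10.7 CPM, and 4 were lower in dorsal and 2 in ventral knockouts, Krt13 and Krt4 in both. Of the genes of cornifying epithelium, 3 were measured in control gated cells and none passed 1.5-fold between regions, and 2 of 4 were higher in dorsal knockouts, Krt78 and Krt10. All 8 mitotic genes were higher dorsally in both genotypes, with Ube2c at 68.4, 10.7, 58.7 and 6.35 CPM, and 3 were lower in dorsal and 6 in ventral knockouts. Between knockout regions, 3 of 12 adhesion genes were lower dorsally and none higher, and 6 of 18 p63-associated genes were lower and 2 higher. The 3 of 12 and the 2 of 18 are close to the background shares. Scaled by the median ratio, 6 in place of 7 adhesion genes, 3 in place of 5 p63-associated genes and none in place of 3 mitotic genes were lower in dorsal knockouts, and between knockout regions the counts became 2 lower and 1 higher for adhesion and 3 lower and 3 higher for p63-associated genes.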

How the data were processed

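Libraries were made with the 10x Genomics GEM-X 5′ v3 kit, per the labels. The deposited files hold raw UMI counts, which the authors made with Cell Ranger 10.0.0 and the genome GRCm39, per the submitters' processing notes. Which annotation and barcode filter were used is not stated there.

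Samples were grouped by the labels' region and genotype. There were 13962, 11150, 6744 and 7668 barcodes per library, at medians of 14350, 11708, 14544.5 and 10902 UMIs. Those with fewer than 500 genes or over 15% mitochondrial UMIs were dropped. Scrublet (scanpy 1.11.5) removed 270, 380, 62 and 181 doublets, at its automatic threshold dorsally and at 0.4% per 1000 barcodes ventrally, where the automatic call was under 0.5%. This left 12976, 9364, 6123 and 6545 cells. Leiden clustering (resolution 1, 2000 variable genes, 30 components, 20 neighbours) gave 42 clusters, named from marker lists.

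Intervals are conditional binomial for ratios of summed UMIs, and shares have Clopper-Pearson intervals (differences: Newcombe), with scipy 1.17.1, all for counting error only. With 1 library per group no test across libraries was run. A gene was measured with at least 50 UMIs in 1 library of a pair. Named were the 7 genes, up to 5 genes of each list with the furthest interval bounds in a comparison, and the 5 genes most like a member. Some of the genes so named are not reported here. The genes, lists and rules were chosen with earlier results of these data known. Ratios and thinning were tested on simulated data. Alternatives varied doublets, the gate, cells, scaling and thresholds, and the closing section gives their effect.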

Additional observations from a re-analysis of the deposited data

Results flagged for a closer look

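Each of these results set 2 effects on opposite sides of 1 with intervals that exclude 1, and the difference itself was not tested, because each group was 1 library. Krt14 in gated basal cells was 3.79 times as high dorsally as ventrally in controls and 0.345 times in knockouts. For the same gene knockout over control was 0.176 dorsally and 1.94 ventrally. The ratio of reporter-high to reporter-low cells for Krt14 was 19.4 in control dorsal and 0.254 in control ventral cells, and 101 in knockout dorsal and 0.169 in knockout ventral cells. For Krt17 that ratio was 1.88 and 0.735 in controls and 2.84 and 0.713 in knockouts.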

How the results depend on the processing

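Values follow the order dorsal over ventral in controls and in knockouts, then knockout over control dorsally and ventrally, and only those that moved by more than counting error are given. For Krt14 they were 2.81 and 1.45 (first and last ratio) with doublets kept, 0.190 dorsally between genotypes with at least 10 Krt5 UMIs, 3.19, 0.230 and 0.143 (the first 3) with the gate on thinned cells, and 2.62 and 0.241 (both regional ratios) in basal-like clusters. In cells without Krt13 or Krt4 all 4 moved, to 0.103, 0.00321, 0.0408 and 1.31, with the first reversed. Without cells holding myoepithelial, fibroblast or immune markers the first 3 were 5.02, 0.389 and 0.151, and with median-ratio size factors the middle 2 were 0.380 and 0.193. For Krt17, keeping doublets gave 3.71 and 0.865 (first and last), at least 10 Krt5 UMIs gave 0.448 and 1.01 (between genotypes), the thinned gate gave 4.03, 0.462 and 1.03 (all but the second), and basal-like clusters gave 3.23, 1.59, 0.440 and 0.893. Cells without Krt13 or Krt4 gave 1.504, 0.607, 0.290 and 0.718, with the second reversed. Leaving out cells with the other markers gave 4.29, 1.89 and 0.927 (all but the third), and size factors gave 1.98 and 0.453 (the middle 2). Krt15 in controls reversed to 0.936 with the thinned gate, 0.965 in basal-like clusters and 0.977 without Krt13 or Krt4, where Krt6a in knockouts reversed to 0.139 and Krt16 in controls to 0.446.

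For the reporter ratio of Krt14, 1 eGFP UMI against 0 gave 10.6 (control dorsal), 23.7 (knockout dorsal) and 0.476 (knockout ventral), 10 per 10000 against 0 gave 0.153 (control ventral), doublets kept gave 0.392 (control ventral), and cells without Krt13 or Krt4 gave 2.35 and 0.380 (controls). For that of Krt17, doublets kept gave 1.98 and 0.909 (controls), 1 eGFP UMI against 0 gave 1.47 and 1.49 (dorsal), 10 per 10000 against 0 gave 0.653, 4.10 and 0.395 (all but control dorsal), at least 10 Krt5 UMIs gave 1.75 and 2.70 (dorsal), and cells without Krt13 or Krt4 gave 1.09, 1.17 and 0.433 (all but control ventral).

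Further alternatives were chosen after seeing the data. Without the 5 highest cells the 4 Krt14 ratios were 5.15, 0.210, 0.0882 and 2.16, the first 3 of Krt17 were 4.39, 1.47 and 0.326, and the reporter ratios were 122 and 0.0176 for Krt14 (control dorsal, knockout ventral) and 1.98, 2.22 and 0.623 for Krt17 (all but control ventral). With under 2 mitotic genes Krt14 gave 3.52, 0.263 and 2.37 (all but the third), Krt17 gave 3.88, 1.30 and 0.321 (the first 3), and the reporter ratios were 14.3 for Krt14 (control dorsal) and 1.71 and 1.79 for Krt17 (dorsal). Without Krt13 alone, Krt14 gave 0.701 (reversed), 0.0219 and 0.0577 (the first 3), Krt17 gave 2.80, 0.774 (reversed) and 0.263 (the first 3), Krt15 reversed to 0.858 in controls and 0.981 in knockouts, and Krt6a in knockouts reversed to 0.549. The Krt14 reporter ratio of knockout dorsal cells had no value without Krt13 or Krt4 or without the 5 highest cells, since no Krt14 was left in the reporter-low group. The cause of these moves was not tested. Of the other values, 108 stayed within their counting error and 144 moved. No paired analysis was possible because each group is 1 library. Depth limits Krt16, and Krt14 in reporter-low knockout dorsal cells, to a few UMIs.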

Other observations

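Krt16 was also counted in chondrocyte-like cells, at 37.6 CPM (32.0 to 43.9) in 389 control dorsal, 22.9 CPM (19.7 to 26.4) in 494 control ventral and 31.1 CPM (26.2 to 36.7) in 273 knockout ventral cells. Only 3.34%, 2.23% and 1.10% of those cells held a Krt16 UMI. Trp63 was at 17.4 CPM (14.3 to 20.9) in 306 thyroid-like cells of the control ventral library, where 23.5% of cells held it, and the keratins of the group were at 6.57 CPM or less there.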
